A study of Mus musculus with 8 samples.

Results

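The genes examined were 36 genes of cholesterol and fatty acid synthesis, taken from a bulk RNA-seq table of mouse islets by matching each Ensembl identifier to the gene symbol. All 36 were among the 53012 genes of the table, and all were among the 15474 genes with enough counts to be tested. They fall into a sterol arm of 17 genes (6 of the mevalonate steps and 11 of the later steps to cholesterol), 6 genes that control the pathway, and a fatty acid arm of 13 genes. Islets came from 4 βIgf1r and 4 βIgf1rKD mice aged 17 months, 1 library per mouse, to ask what lowering the insulin-like growth factor 1 receptor in β-cells does to old islets. The βIgf1rKD mice were Ins1-CreERT2+/- Igf1r flox/flox and received 5 daily intraperitoneal injections of tamoxifen at 0.075 mg/g. The βIgf1r controls were Ins1-CreERT2-/- Igf1r flox/flox and received corn oil, so that both groups carry the floxed alleles. Islets were taken 7 days after the last injection. Cre, tamoxifen and the deletion occur in the same mice and cannot be told apart, the methods name both a rat insulin promoter and Ins1-CreERT2 as the driver of Cre, and the sex of each mouse is not marked although both sexes were used. Values below are CPM, counts scaled to a common library size after TMM normalization, and the order of mice is M148, M151, M152 and M153 for βIgf1r and M145, M146, M149 and M150 for βIgf1rKD.

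Cells make cholesterol from acetyl-CoA by way of mevalonate, the isoprenoids, squalene and lanosterol, and make fatty acids from the same acetyl-CoA by way of malonyl-CoA. The transcription factors SREBP-1 and SREBP-2, encoded by Srebf1 and Srebf2, switch on many of these genes. When sterols are scarce, SCAP carries them from the endoplasmic reticulum to the Golgi, where they are cut and released, and when sterols are plentiful the INSIG proteins hold SCAP back. In β-cells, glucose carbon leaves the mitochondria as citrate, which Acly turns into acetyl-CoA.

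Promoters are shown for 4 sterol-regulated members whose difference between the groups was among the larger ones. The sequences are those of RefSeq on GRCm38.p6, from 250 bases before to 50 bases after the transcription start, and 29 of the 36 members had one. Capitals mark CCAAT, the box bound by the factor NF-Y, on either strand (ATTGG when on the other strand), and the sterol regulatory element written as TCACNCCAC.

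Hmgcs1 (chr13:119690101-119690400, + strand): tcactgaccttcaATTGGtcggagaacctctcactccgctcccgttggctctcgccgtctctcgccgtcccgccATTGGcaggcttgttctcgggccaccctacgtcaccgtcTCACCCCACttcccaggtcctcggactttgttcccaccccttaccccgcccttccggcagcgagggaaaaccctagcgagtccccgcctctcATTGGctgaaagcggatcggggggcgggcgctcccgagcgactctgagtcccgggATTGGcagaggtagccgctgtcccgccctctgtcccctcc
Idi1 (chr13:8885356-8885655, + strand): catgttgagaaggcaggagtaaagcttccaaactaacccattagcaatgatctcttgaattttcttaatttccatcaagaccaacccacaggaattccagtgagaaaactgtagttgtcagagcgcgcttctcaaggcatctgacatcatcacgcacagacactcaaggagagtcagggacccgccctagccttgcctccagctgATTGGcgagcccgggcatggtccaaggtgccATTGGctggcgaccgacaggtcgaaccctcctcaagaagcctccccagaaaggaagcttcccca
Nsdhl (chrX:72918271-72918570, + strand): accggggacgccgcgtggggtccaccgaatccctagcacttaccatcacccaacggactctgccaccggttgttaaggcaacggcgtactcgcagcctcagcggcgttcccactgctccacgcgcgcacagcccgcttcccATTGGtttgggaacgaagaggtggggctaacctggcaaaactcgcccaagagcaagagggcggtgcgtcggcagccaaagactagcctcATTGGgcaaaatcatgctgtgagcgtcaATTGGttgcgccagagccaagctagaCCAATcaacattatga
Insig1 (chr5:28071162-28071461, + strand): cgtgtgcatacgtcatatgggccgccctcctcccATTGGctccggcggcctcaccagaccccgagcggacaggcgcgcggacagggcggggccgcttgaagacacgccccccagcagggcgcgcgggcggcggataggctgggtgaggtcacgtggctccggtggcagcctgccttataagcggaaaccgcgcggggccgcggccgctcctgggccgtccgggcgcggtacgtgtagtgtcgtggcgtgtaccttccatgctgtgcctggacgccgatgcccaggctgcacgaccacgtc

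Each of the 4 promoters held at least 1 CCAAT box. Hmgcs1 and Nsdhl held 4 each, Idi1 held 2, and Insig1 held 1. CCAAT was found in 14 of the 14 sterol arm promoters, in 4 of 5 of the control genes and in 6 of 10 of the fatty acid arm, compared with 41.1% of all 27025 genes with a promoter of the same length in the table. The element TCACNCCAC was found only in Hmgcs1 among the 29, starting 137 bases before the start site, and in 1.44% of all genes. The GC box GGGCGG was in 22 of the 29 (38.2% of all genes) and the E-box CACGTG in 6 (8.09%), each on either strand, and no motif is contained in another. A match describes letters in this window and is no measure of binding. The lack of a match to 1 written pattern does not show that a gene has no such element.

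Between the groups, 27 of the 36 genes had a lower mean in βIgf1rKD islets and 9 a higher one, with a median log2 fold change of -0.09 and a range from -0.42 to 0.78. Of all genes tested, 47.7% were lower, and their median was 0.01. The sterol arm was lower for 14 of 17 genes with a median of -0.12, the control genes for 5 of 6 with a median of -0.12, and the fatty acid arm for 8 of 13 with a median of -0.06. Only Nsdhl had an unadjusted p under 0.05 in edgeR's quasi-likelihood test, 1 of 36 genes against a background of 4.12% of all genes (1.89% lower and 2.23% higher). None of the 36 genes had groups that did not overlap, against 2.22% of all genes (1.27% lower and 0.956% higher). After Benjamini-Hochberg adjustment in edgeR no gene of the 15474 passed, with 637 genes at an unadjusted p under 0.05, against 6 adjusted calls with DESeq2 and 1 with limma-voom. The smallest adjusted p among the 36 was 0.987. The 95% interval of the log2 fold change lay within ±1 for 34 of the 36 genes and within ±0.5 for 23, so that differences beyond these sizes are outside the interval for those genes. In bulk islets, fewer cells of a type and less RNA per cell cannot be told apart.

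**Figure D1:**
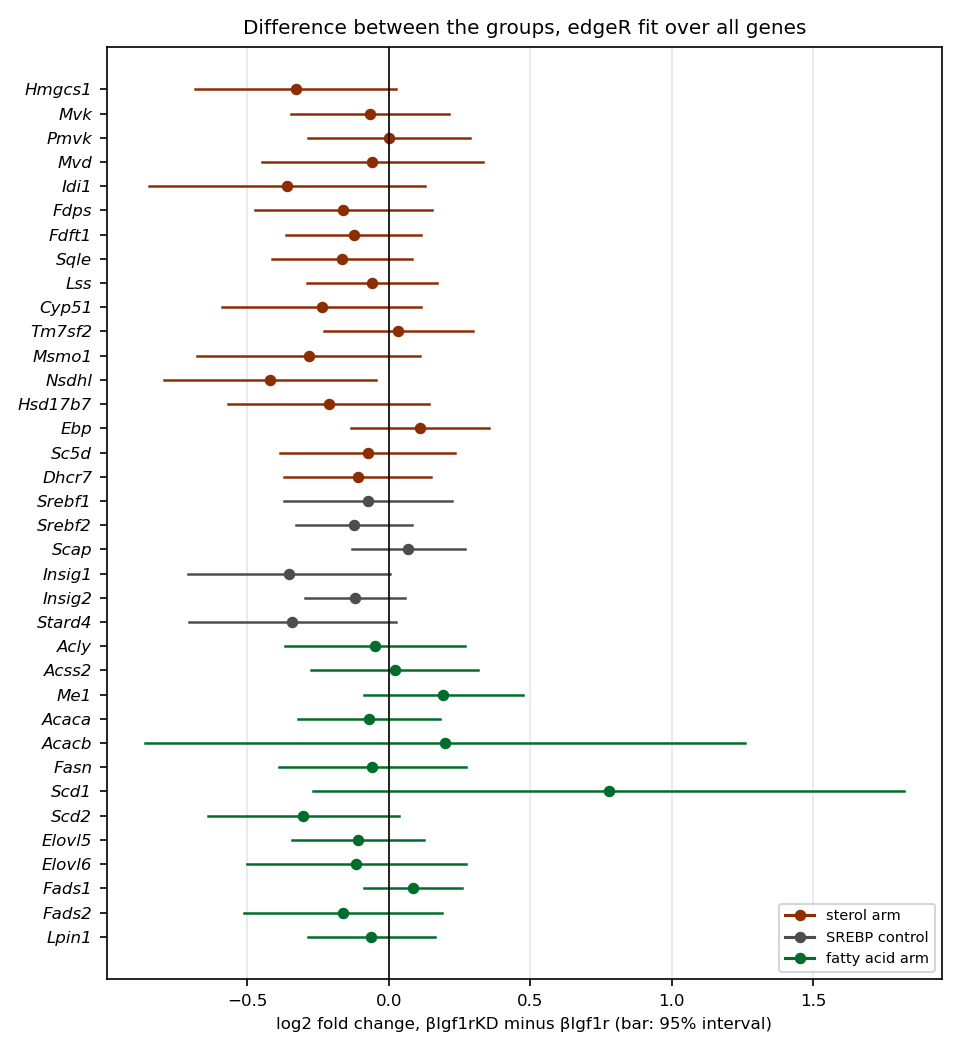
The log2 fold change of each gene, βIgf1rKD minus βIgf1r, is plotted on the horizontal axis with its 95% interval from edgeR. Most points sit left of 0, from Nsdhl at -0.42 up to Scd1 at 0.78, and only the interval of Nsdhl, -0.80 to -0.05, lies wholly on the left.

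The number of genes with lower values varied with the mice compared. Xist, an RNA of the inactive X chromosome, was above 100 CPM in 1 of 4 βIgf1r mice (M151) and 3 of 4 βIgf1rKD mice, a limit set after the values were seen. Among the mice above it, 18 of the 36 genes were lower in βIgf1rKD, with a median difference of -0.01 (1 mouse against 3). Among the mice below it, 30 of the 36 were lower, with a median of -0.19 (3 mice against M149 alone). Of all genes, 50.0% and 50.3% were lower in the 2 sets. Each set has 1 mouse on 1 side, so that the sets cannot show in which mice a difference holds. With Xist as a covariate in the fit over all 8 mice, 27 of the 36 genes were lower, 14 of the 17 in the sterol arm, with a median of -0.11. Without M145 and M149, the βIgf1rKD libraries with the most acinar cell RNA, 22 of the 36 genes were lower, and 10 of the 17 of the sterol arm, with a median of -0.03 over the 36. With the acinar score as a covariate instead, 28 of the 36 and 14 of the 17 were lower, with a median of -0.09.

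Before the members are described by role, the libraries are summarised. Totals ran from 21634080 to 42391328 counts per mouse. Igf1r itself measured 46.8, 48.0, 60.9 and 58.7 CPM in βIgf1r and 46.9, 50.2, 57.9 and 47.8 CPM in βIgf1rKD islets. The groups overlapped (53.6 ± 7.21 against 50.7 ± 4.996 CPM, SD, n = 4 each), and counts cover the whole gene rather than the floxed exon 3. The 11 β-cell markers found summed to 146876 to 203657 CPM in βIgf1r and 127878 to 188396 CPM in βIgf1rKD islets. Of these 11, 7 had a lower mean in βIgf1rKD and 1 had an unadjusted p under 0.05 in edgeR. It was Ins1, an insulin gene, at 31089 to 50373 CPM in βIgf1r and 19119 to 28541 CPM in βIgf1rKD islets without overlap. Its difference was -0.92 log2, with an unadjusted p of 0.0204 and an adjusted p of 0.987 in edgeR. Ins1 is also part of the marker sum. Ins2, the other insulin gene, differed by -0.08 log2 (SE 0.41) with overlap. Only the βIgf1rKD mice carry Ins1-CreERT2, and the part of that allele in the Ins1 value was not tested. Acinar markers, digestive enzyme genes, took 2.19% to 14.9% of counts in βIgf1r and 4.23% to 18.3% in βIgf1rKD, and all 12 had a higher mean in βIgf1rKD with 0 at an unadjusted p under 0.05 in edgeR. All 10 endothelial markers tested had a lower mean in βIgf1rKD, 5 of them with an unadjusted p under 0.05 in edgeR. The 11 found summed to 454 to 576 against 406 to 457 CPM. Of 7 markers of alpha, delta and PP cells, 5 had a lower mean in βIgf1rKD and 0 an unadjusted edgeR p under 0.05. These 7 summed to 18496 to 45169 CPM in βIgf1r, highest in M151, and 15119 to 34460 CPM in βIgf1rKD islets. Of all genes tested, 47.7% were lower and 52.3% higher, 1.27% were lower without overlap, and 4.12% had an unadjusted edgeR p under 0.05. Of 12 markers of fat cells, which use the fatty acid arm heavily, 5 were tested, and the sum was 26.4 to 33.7 CPM in βIgf1r and 23.8 to 32.3 CPM in βIgf1rKD islets. Adipoq stayed at or below 0.15 CPM, and Retn was at 0 in every mouse.

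**Figure D2:**
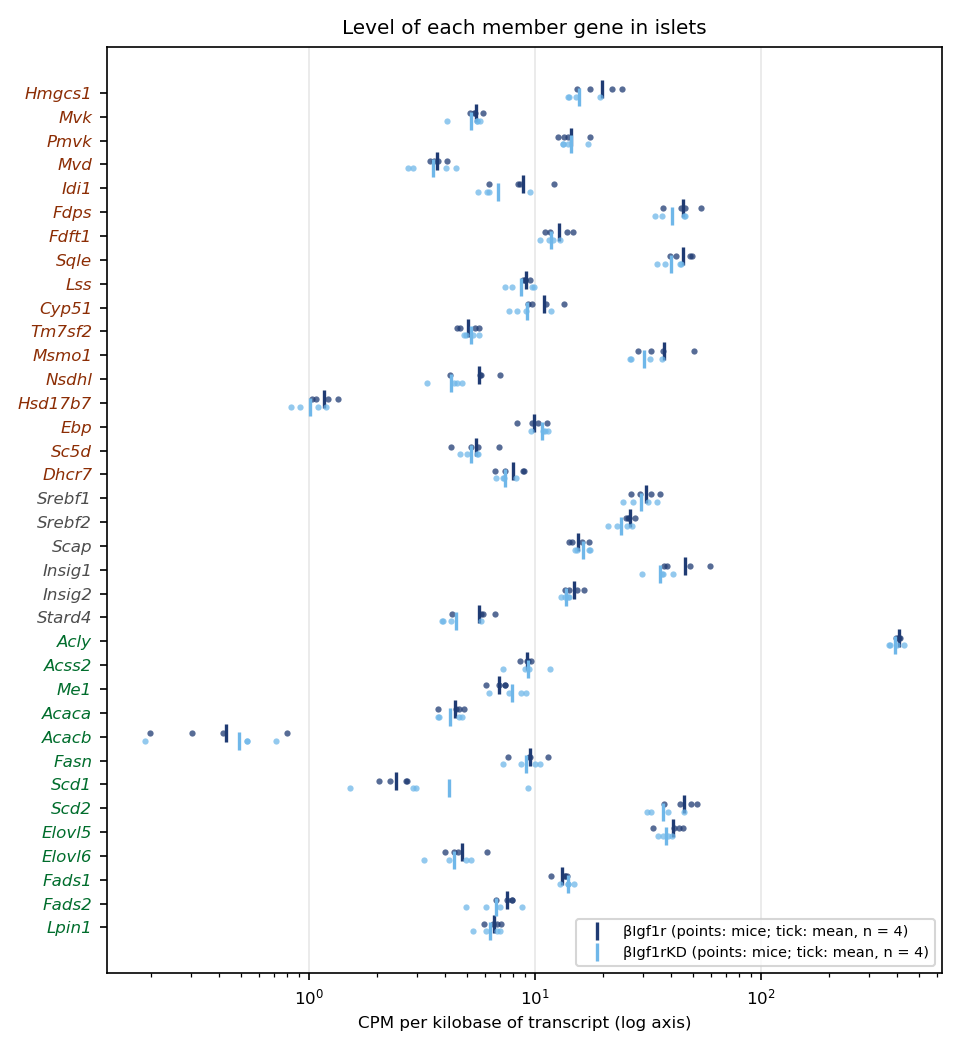
Level of each gene in CPM per kilobase of transcript on a log axis, with a point per mouse and a tick for the mean (n = 4) in each group, and gene names coloured by sterol arm (brown), control genes (grey) and fatty acid arm (green). Acly, at 407 and 393 CPM per kilobase, sits far to the right of Fdps at 45.3 and 40.5, and Acacb is lowest at 0.428 and 0.491.

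Among the mevalonate genes, 5 of 6 had a lower mean in βIgf1rKD, with a median log2 fold change of -0.11. Hmgcs1, the synthase that makes HMG-CoA, measured 75.7, 60.6, 53.1 and 84.2 CPM in βIgf1r and 48.5, 49.1, 52.3 and 67.4 CPM in βIgf1rKD islets. In M145, M146 and M149 it was below every βIgf1r mouse, and M150 lay inside the range of the controls. The means were 68.4 ± 14.1 and 54.3 ± 8.88 CPM (SD, n = 4), and the log2 fold change was -0.33 with SE 0.16. The unadjusted edgeR p was 0.0661. It became 0.0481 with DESeq2 and 0.0454 with no filter on low counts. With limma-voom it was 0.0766. In edgeR it was 0.137 with Xist as a covariate, 0.140 with the acinar score and 0.309 without M145 and M149. Leaving out single mice gave edgeR p values from 0.0175 to 0.197. Of its 31-base stretches, 13.1% occur in other annotated genes, mostly Gm48342, so that part of its count could be split between them.

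Idi1, the isomerase that interconverts the isoprenoid building blocks, measured 26.0, 25.4, 19.0 and 36.7 CPM in βIgf1r and 18.9, 16.9, 18.6 and 28.6 CPM in βIgf1rKD islets. M153 was the highest of the 8 mice. M145, M146 and M149 were below all controls, M145 by little, and M150 was above 3 of the 4. The log2 fold change was -0.36 with SE 0.22 and a 95% interval from -0.85 to 0.13. With single mice left out it ranged from -0.56 to -0.17, and 27.1% of its 31-base stretches are shared with other genes, mostly Gm13502.

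Fdps, which makes farnesyl diphosphate, was the most abundant sterol arm gene per length, at 45.3 ± 7.20 CPM per kilobase in βIgf1r and 40.5 ± 6.33 in βIgf1rKD (SD, n = 4). Sqle was close to it, at 44.9 and 40.0. Of the 31-base stretches of Fdps, 27.9% occur in other genes, mostly Gm43738, against 0.969% of those of Sqle. In CPM it measured 63.8, 50.7, 61.2 and 74.9 against 50.2, 63.6, 46.8 and 63.2. The overlap was wide, with a log2 fold change of -0.16 and SE 0.14. Pmvk, the second kinase of the mevalonate chain, measured 15.997, 15.1, 20.9 and 16.8 against 15.8, 20.4, 15.9 and 16.6 CPM. Its log2 fold change was 0.00, with a 95% interval from -0.29 to 0.29. Mvk, the first kinase, and Mvd, the decarboxylase that follows, had log2 fold changes of -0.07 (SE 0.12) and -0.06 (SE 0.17), both smaller than their SE.

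In the steps from farnesyl diphosphate to cholesterol, 9 of 11 genes had a lower mean in βIgf1rKD. Sqle, squalene epoxidase, measured 134, 116, 109.5 and 137 CPM in βIgf1r and 104, 122, 96.0 and 120.3 CPM in βIgf1rKD islets. M145 and M149 were below all controls, and M146 and M150 within their range, for a log2 fold change of -0.17 with SE 0.11. Fdft1, squalene synthase, measured 51.1, 42.9, 41.1 and 54.3 against 38.9, 42.7, 44.4 and 47.5 CPM, a log2 fold change of -0.12 with SE 0.11. Of the 31-base stretches of Fdft1, 31.9% occur in other genes.

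After lanosterol is formed by Lss, enzymes that strip methyl groups from the sterol ring take over. Msmo1, the oxidase that attacks the methyl groups, measured 75.1, 66.7, 58.6 and 103 CPM in βIgf1r and 54.2, 65.7, 54.0 and 74.8 CPM in βIgf1rKD islets. M153 stood highest and the groups overlapped, with a log2 fold change of -0.28 (SE 0.18). Cyp51, lanosterol demethylase, had means of 42.8 ± 7.47 and 36.3 ± 7.10 CPM (SD, n = 4) and a log2 fold change of -0.24 (SE 0.16).

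Nsdhl, the dehydrogenase that works with Msmo1 and Hsd17b7 in removing methyl groups from the sterol ring, had the lowest log2 fold change of the 36 genes. The gene (ENSMUSG00000031349) lies on chromosome X at 72918557 to 72958514 on the + strand in GENCODE M21 (GRCm38), with 8 exons in its main transcript. It measured 12.4, 12.5, 9.11 and 15.2 CPM in βIgf1r and 9.73, 7.21, 9.49 and 10.2 CPM in βIgf1rKD islets. All 4 βIgf1rKD mice were below M148, M151 and M153, while M152 was as low as the βIgf1rKD mice. The means were 12.3 ± 2.48 and 9.17 ± 1.34 CPM (SD, n = 4), and the counts behind them were 202 to 465 per mouse. The log2 fold change was -0.42 with SE 0.17 and a 95% interval from -0.80 to -0.05, that is, a level at 0.747 of the controls. The unadjusted edgeR p was 0.0317 and the adjusted p was 0.987. A two-sided exact permutation test over the 70 assignments of mice gave p = 0.114. The edgeR p was 0.0601 without M148, 0.0594 without M151, 0.0968 without M153 and 0.0781 without M146. Over all fits without 1 mouse it ran from 0.00521 to 0.0968, and the log2 fold change from -0.54 to -0.31. With Xist as a covariate the log2 fold change stayed at -0.42, with an unadjusted edgeR p of 0.0579. Within the mice with Xist above 100 CPM the difference was -0.48 log2 (1 against 3 mice), and within those below it -0.33 (3 against 1). None of its 31-base stretches occurs in another annotated gene.

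The other late sterol genes differed little. Hsd17b7, the ketoreductase of the demethylation steps, had a log2 fold change of -0.21 (SE 0.16), Dhcr7, the last reductase of the pathway, one of -0.11 (SE 0.12), Sc5d, a desaturase of the ring, one of -0.07 (SE 0.14), and Lss one of -0.06 (SE 0.10). Ebp, the sterol isomerase, was at 0.11 (SE 0.11) and Tm7sf2, a sterol reductase, at 0.03 (SE 0.12).

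**Figure D3:**
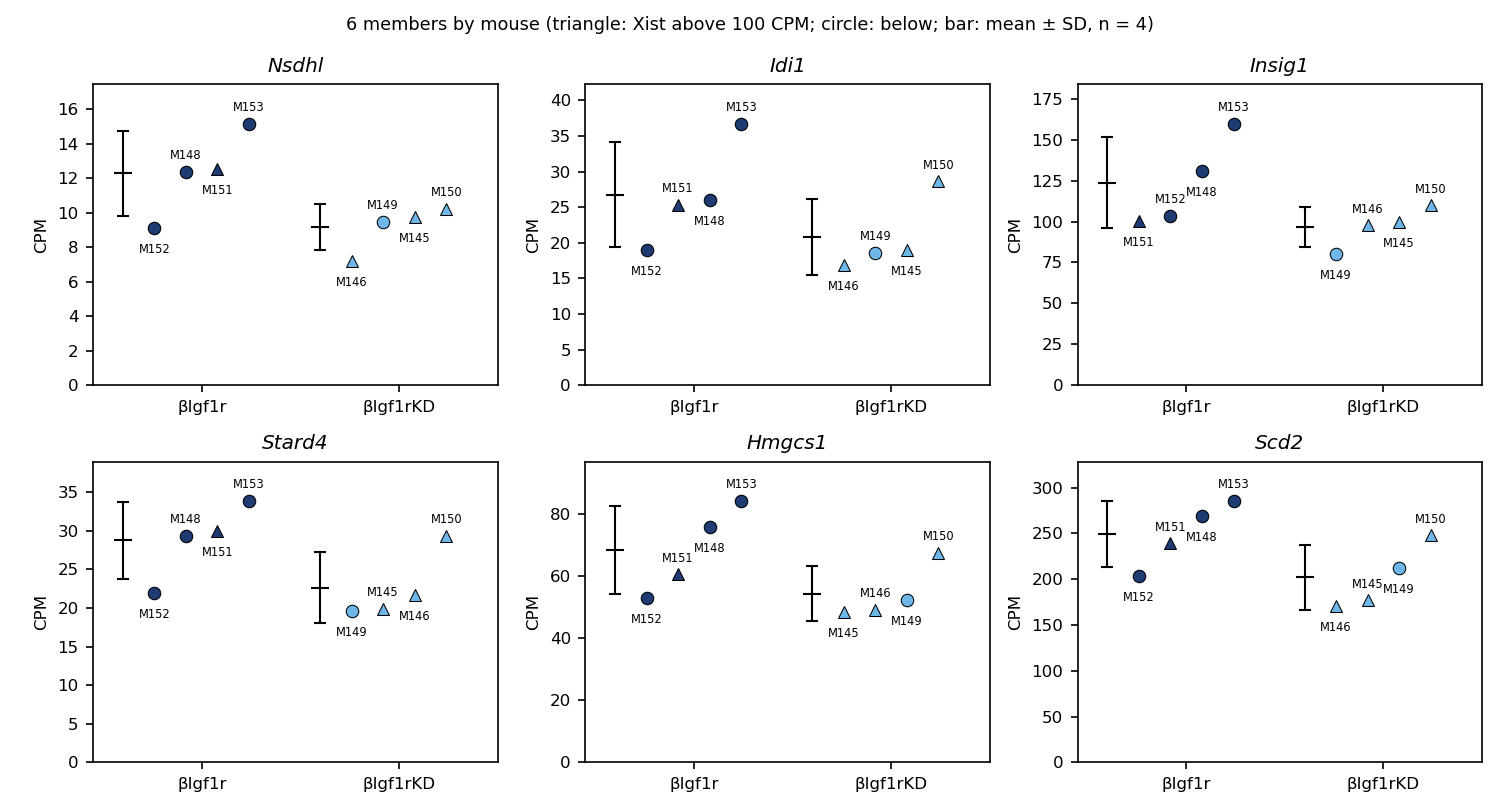
CPM of 6 genes in each mouse, with the mean ± SD (n = 4) to the left of each group, triangles for mice with Xist above 100 CPM and circles for those below. In all 6 genes M153 is the highest βIgf1r mouse and M150 the highest βIgf1rKD mouse, and the groups overlap.

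Of the control genes, Insig1 had the largest difference. Insig1, itself an SREBP target that restrains SCAP, measured 131, 101, 104 and 159.8 CPM in βIgf1r and 99.5, 97.9, 80.1 and 109.9 CPM in βIgf1rKD islets. M145, M146 and M149 were below all controls, although M145 and M146 were within 4 CPM of M151. The log2 fold change was -0.35 with SE 0.16, a 95% interval from -0.71 to 0.00 and an unadjusted edgeR p of 0.0521. The p was 0.0299 with DESeq2, 0.0375 with no filter on low counts and 0.0490 with at least 10 counts in every mouse. Leaving out single mice gave edgeR p values from 0.0229 to 0.161. Within the mice with Xist above 100 CPM, Insig1 differed by 0.03 log2 (M151 alone against 3 βIgf1rKD mice). Within those below it the difference was -0.69 (3 βIgf1r mice against M149 alone). With 1 mouse on 1 side, neither value shows in which mice a difference holds. Insig2, its partner, had means of 40.1 ± 3.44 and 36.9 ± 1.43 CPM (SD, n = 4) and a log2 fold change of -0.12 (SE 0.08). Per length, Insig1 was 3.04 times the level of Insig2 in βIgf1r and 2.61 times in βIgf1rKD islets.

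Stard4, a carrier that moves cholesterol between membranes and an SREBP-2 target, measured 29.3, 29.9, 21.9 and 33.8 CPM in βIgf1r and 19.9, 21.7, 19.6 and 29.3 CPM in βIgf1rKD islets. M145, M146 and M149 were below all controls, with a log2 fold change of -0.34 (SE 0.16) and an unadjusted edgeR p of 0.0646. This p was 0.0467 with no filter and 0.0487 with Xist as a covariate. Leaving out single mice gave edgeR p values from 0.00812 to 0.171.

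The SREBP genes themselves showed smaller differences. Srebf1 measured 141, 115, 154 and 125 CPM in βIgf1r and 105, 149.1, 136 and 117 CPM in βIgf1rKD islets. With a log2 fold change of -0.07 and SE 0.13, the groups overlapped. Srebf2 measured 129, 132, 140.2 and 131 against 107, 136, 117 and 129 CPM, a log2 fold change of -0.12 with SE 0.09. For Srebf1 the direction turned with Xist as a covariate, to 0.01. Per length, Srebf1 stood at 1.18 times Srebf2 in βIgf1r and 1.22 times in βIgf1rKD islets. Scap, the escort of both proteins, had a log2 fold change of 0.07 (SE 0.09).

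**Figure D4:**
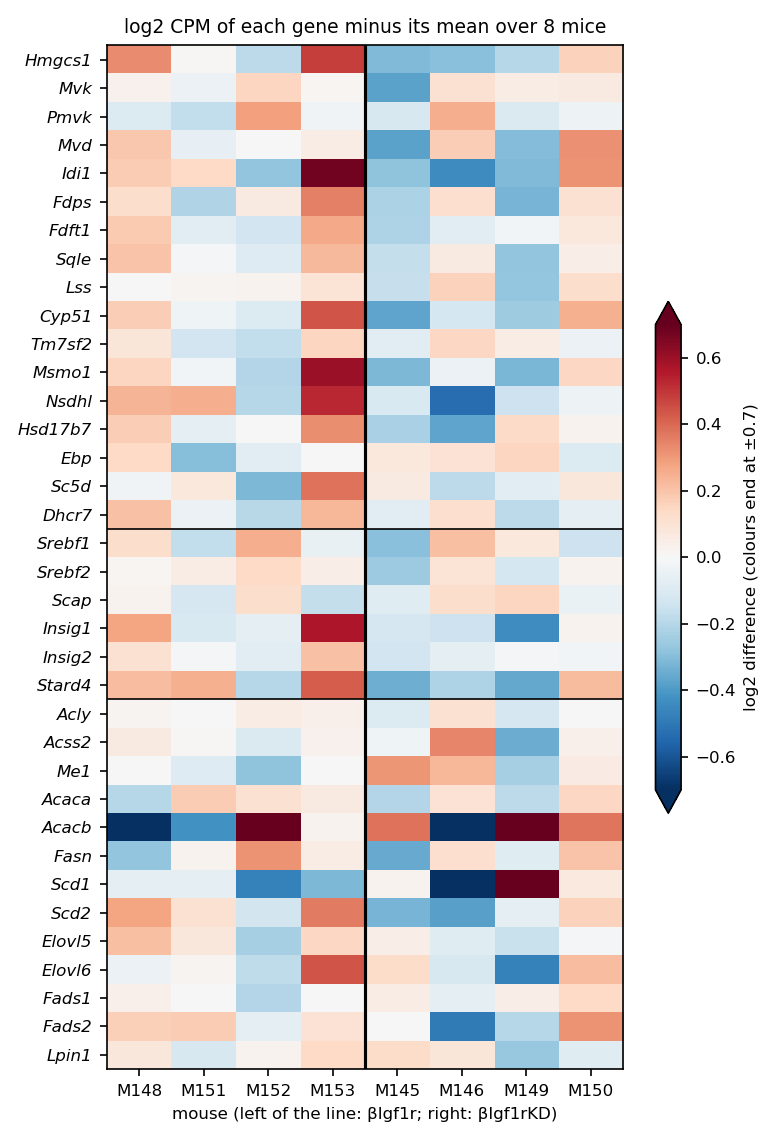
Each cell gives the log2 CPM of a gene in a mouse minus its mean over the 8 mice, with red above and blue below the mean, colours ending at ±0.7, and horizontal lines between sterol arm, control genes and fatty acid arm. M153 is red through most of the sterol arm, with a mean of 0.28 over its 17 genes, and M145 is blue through much of it, with a mean of -0.19.

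Single mice stood out in the sterol arm. M153 was the highest of the 8 mice for 12 of the 17 sterol arm genes, and for 13.9% of all genes. In the fatty acid arm it was the highest for 3 of 13. The mean deviation over the sterol arm was 0.13, -0.04, -0.08 and 0.28 log2 in the βIgf1r mice and -0.19, -0.05, -0.14 and 0.08 log2 in the βIgf1rKD mice. M148 and M153 of the controls and M150 of the βIgf1rKD mice were above the mean, and the groups overlapped. Leaving out M148 or M153 left 0 of the 36 genes at an unadjusted p under 0.05 in edgeR, whereas leaving out M152 left 7, leaving out M150 left 8 and leaving out M149 left 2. Over all genes the calls in these fits were 383 without M148, 402 without M153, 1114 without M152, 854 without M150 and 582 without M149. The fit of all 8 mice called 637, or 4.12%. The share of all genes was not computed for the fits without a mouse, so their member counts have no background share. The within-group SD of the 36 genes had a median of 0.205 log2, as did that of all genes tested.

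Acly and its neighbours supply the acetyl-CoA and NADPH for both arms. Acly, ATP citrate lyase (chr11:100476353-100528000, - strand, GENCODE M21), was the most abundant of the 36 genes, at 407 ± 6.86 CPM per kilobase in βIgf1r and 393 ± 28.0 in βIgf1rKD islets (SD, n = 4), and its CPM was higher than that of 99.7% of all genes tested. In CPM it measured 1779, 1749, 1821 and 1797 against 1645, 1889.7, 1621 and 1756. The controls lay close together and the βIgf1rKD mice spread to both sides of them, with a log2 fold change of -0.05 and SE 0.14. Acss2, which makes acetyl-CoA from acetate, measured 28.1, 27.1, 25.0 and 27.4 against 26.3, 34.1, 21.1 and 27.5 CPM, a log2 fold change of 0.02 (SE 0.13). Per length, Acly stood at 44.3 times Acss2 in βIgf1r and 42.7 times in βIgf1rKD islets. Me1, the malic enzyme that yields NADPH, measured 24.2, 22.7, 19.9 and 24.2 against 29.9, 28.4, 20.5 and 25.1 CPM. M145, M146 and M150 were above every control, and the log2 fold change was 0.19 (SE 0.13). Of its 31-base stretches, 36.9% occur in other genes, mostly Gm7049.

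Fatty acid synthesis proper showed no difference larger than its error. Fasn, fatty acid synthase, measured 76.2, 94.0, 115 and 95.6 CPM in βIgf1r and 72.4, 100.1, 86.8 and 106 CPM in βIgf1rKD islets, with a log2 fold change of -0.06 and a 95% interval from -0.39 to 0.27. Acaca, the acetyl-CoA carboxylase of the cytosol, measured 35.5, 46.1, 43.9 and 42.6 against 35.3, 43.7, 35.9 and 45.0 CPM, with a log2 fold change of -0.07 (SE 0.11). Of the 31-base stretches of Acaca, 33.5% occur in other genes, mostly Gm5182. Acacb, the mitochondrial carboxylase whose malonyl-CoA restrains fatty acid oxidation, measured 1.73, 2.66, 7.01 and 3.65 against 4.68, 1.64, 6.27 and 4.66 CPM from 46 to 197 counts per mouse. Its log2 fold change of 0.20 had SE 0.47, a 95% interval from -0.86 to 1.26. Acacb was highest in M152, M149, M145 and M150, which were also the 4 mice with the most acinar marker RNA. With an acinar score as covariate its log2 fold change was -0.46, with an unadjusted edgeR p of 0.0570. Lpin1, the phosphatidate phosphatase of glycerolipid synthesis, measured 37.8, 33.2, 36.5 and 39.4 against 39.2, 38.0, 29.7 and 33.8 CPM, with a log2 fold change of -0.06 (SE 0.10).

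**Figure D5:**
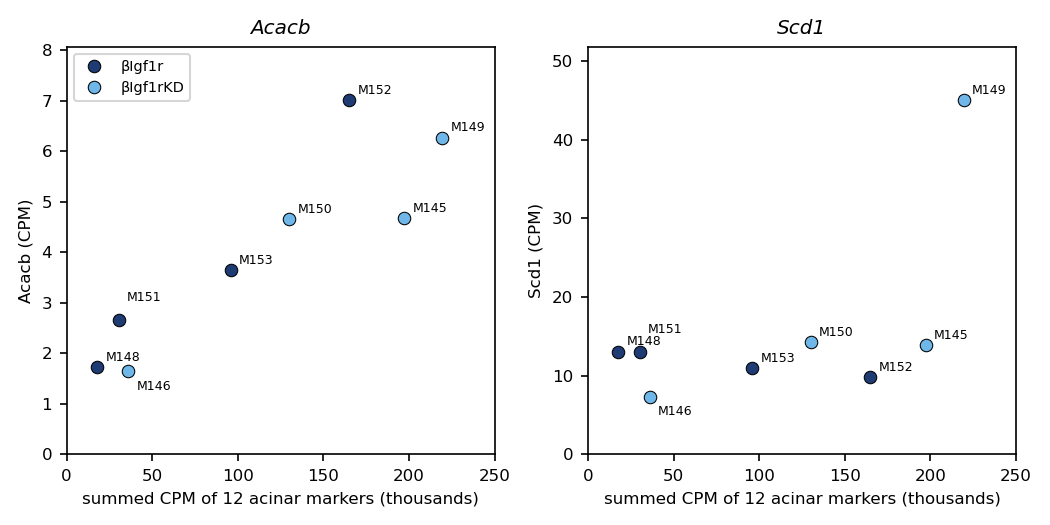
Acacb and Scd1 in CPM (vertical axes) against the summed CPM of 12 acinar markers divided by 1000 (horizontal axes), 1 point per mouse. Acacb is at 3.65 CPM or above in the 5 mice with the most acinar RNA and at 2.66 or below in the other 3, while Scd1 stands at 45.1 CPM in M149 and between 7.32 and 14.3 CPM in the others.

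Of the desaturases, Scd1 and Scd2 pointed to opposite sides. Both introduce the double bond of oleate, and both genes lie on chromosome 19, with Scd4 between them. Scd2, the main form in these islets at 45.7 ± 6.62 CPM per kilobase in βIgf1r and 37.0 ± 6.54 in βIgf1rKD (SD, n = 4), measured 269, 239, 203 and 285 CPM against 177, 170.4, 212 and 248 CPM. M145 and M146 were below all controls, and M149 and M150 within their range. Its log2 fold change was -0.30 (SE 0.15), a level at 0.811 of the controls, with an unadjusted edgeR p of 0.0738, or 0.0412 with DESeq2. Leaving out single mice gave edgeR p values from 0.0206 to 0.185.

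Scd1 measured 13.0, 13.0, 9.79 and 10.9 CPM in βIgf1r and 13.8, 7.32, 45.1 and 14.3 CPM in βIgf1rKD islets. M149 stood apart from all other mice, and M146 was the lowest of the 8. Its log2 fold change was 0.78 with SE 0.47 and a 95% interval from -0.27 to 1.82. It was 0.01 without M149, and 1.05 with an unadjusted edgeR p of 0.0245 without M146. M149 also had the highest sums of the acinar, duct, macrophage and stellate cell markers of the 8 mice. All 5 duct markers tested had a higher mean in βIgf1rKD, against 52.3% of all genes tested. The sums were 59.5 to 76.2 CPM in βIgf1r and 39.3 to 164 CPM in βIgf1rKD. For 7 of 9 macrophage and leukocyte markers the mean was higher, with sums of 124 to 189 and 141 to 294 CPM, and for 4 of 8 stellate cell markers, with sums of 194 to 216 and 108 to 361 CPM. An unadjusted edgeR p under 0.05 was found for 2 of the 9, both higher, and for 1 of the 8, lower. The share of all genes tested was 4.12%. The part of these cell types in the Scd1 value was not tested. Within a library, Scd2 exceeded Scd1 by 4.40 ± 0.21 log2 CPM in βIgf1r and 3.64 ± 0.999 in βIgf1rKD islets (SD, n = 4), with M149 at 2.23. Between 6.81% and 8.18% of the 31-base stretches of the 2 genes are shared with other genes, mostly Scd3.

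The elongases and polyunsaturated fatty acid desaturases differed little between the groups. Elovl5, which lengthens polyunsaturated chains, measured 126, 115, 92.6 and 120.1 against 112, 103, 97.7 and 108 CPM, a log2 fold change of -0.11 (SE 0.10). Elovl6, which lengthens palmitate, also had lower means in βIgf1rKD, 28.3 ± 5.59 against 26.1 ± 5.29 CPM (SD, n = 4). Fads1, the desaturase that makes arachidonate, measured 47.9, 46.9, 40.6 and 46.8 against 48.6, 44.8, 48.3 and 51.5 CPM, a log2 fold change of 0.08 (SE 0.08). Fads2, which opens that route, had means of 23.6 ± 1.79 and 21.1 ± 4.98 CPM (SD, n = 4). Fads1 exceeded Fads2 by 0.95 ± 0.03 log2 CPM in βIgf1r and 1.22 ± 0.26 in βIgf1rKD islets, where M146 and M149 had the wider gaps, 1.51 and 1.33.

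Genes around the pathway were read from lists of the same fit, and 0 passed an adjusted p under 0.05 in edgeR. Of 13 genes of glycerolipid synthesis and lipid droplets, 10 were higher in βIgf1rKD, against 52.3% of all genes tested, with a median of 0.09. Of the 13, 1 had an unadjusted edgeR p under 0.05, against 4.12% of all genes. It was Dgat2, which adds the last acyl chain of triglyceride. Dgat2 measured 3.11, 3.09, 2.88 and 2.13 CPM in βIgf1r and 4.49, 3.57, 3.79 and 3.77 CPM in βIgf1rKD islets. Every βIgf1rKD mouse was above every control, as for 0.956% of all genes tested. The log2 fold change was 0.47 (SE 0.17), with an unadjusted edgeR p of 0.0229, an adjusted p of 0.987 and an exact permutation p of 0.0286, the smallest that 4 against 4 mice allow. Groups that do not overlap always give this permutation p, so it adds nothing to their separation. The unadjusted p was 0.0558 without M153, 0.0670 without M145 and 0.0598 with Xist as a covariate.

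The 5 lists that follow held 0 genes at an unadjusted p under 0.05 in edgeR, against 4.12% of all genes tested. Of all genes, 47.7% were lower and 52.3% higher. Genes of SREBP processing and sterol-regulated degradation were lower for 5 of 8 with a median of -0.04, and the smallest p was that of Nr1h2, encoding LXRβ, at 0.21 log2 (SE 0.11). Cholesterol uptake, storage and transport genes were lower for 5 of 13 with a median of 0.02, led by Soat2, a cholesterol esterifying enzyme, at 2.06 log2 (SE 1.03), which was at 3.92 CPM in M149 and had a mean of 0.298 ± 0.268 CPM in βIgf1r (SD, n = 4). Efflux and LXR target genes were lower for 5 of 7 with a median of -0.01, led by Apoe at 0.41 log2, again highest in M149 at 212 CPM. Other fatty acid synthesis and elongation genes were lower for 12 of 19 with a median of -0.03, led by Acsl5, an acyl-CoA synthetase, at 0.19 log2. Fatty acid oxidation genes were higher for 9 of 14 with a median of 0.03, led by Acadvl, the very long chain acyl-CoA dehydrogenase, at 0.13 log2.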

How the data were processed

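Islet RNA of 8 mice was sequenced. The deposited values are the authors' estimated counts per gene, not scaled between mice. The submitters' processing notes name fastp, kallisto and GRCm38, and versions are not given in the sources used here. Estimated counts were rounded to whole numbers, filtered by edgeR 4.0.16 defaults, scaled by TMM and compared by its quasi-likelihood test in R 4.3.3, with Benjamini-Hochberg adjustment over the 15474 genes tested. Of 53012 identifiers 51906 matched a symbol. SE was derived from the fold change and its F value, and log2 CPM used a prior count of 2. CPM per kilobase used the main transcript of GENCODE M21. Sharing was counted over 31-base stretches of annotated transcripts.

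Groups came from the sample labels. The 36 members and the lists were chosen with earlier results of these data known, so no test was made over a list. Values by mouse are given for members with an unadjusted p under 0.05, with separate groups or among the 4 largest differences, and for the 3 most abundant per length of each role. Stard4 was added after its values were seen. From each lipid list the genes with an unadjusted p under 0.05 are named, or otherwise the 1 with the smallest p, except that 1 gene and its list are not reported here. Alternatives were RLE factors, DESeq2 1.42.0, limma-voom (limma 3.58.1), 2 other filters, Xist, acinar and adipocyte scores as covariates, and leaving out each mouse. After the data were seen, Xist with the acinar score, and the data without M145 and M149, were added. Scripts were tested on simulated data, in which the changes were larger than those of any of the 36 genes. Counts of 21634080 to 42391328 per mouse make counting error small for the abundant genes. It is larger for low ones, such as Acacb (46 to 197 counts), Hsd17b7 (90 to 210) and Mvd (103 to 318). Dgat2, at 2.13 to 4.49 CPM, is also low. Figures used matplotlib 3.10.9 (Python 3.11.15).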

Additional observations from a re-analysis of the deposited data

Results flagged for a closer look

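Gaps within a group of 4 mice were examined by Dixon's test for the 36 genes and 3 other genes, 78 sets in all. Chance flags about 1 in 20 groups, 3.9 of the 78, and 2 were found. Mvk, the first kinase of the mevalonate chain, was at 2.78 log2 CPM in M145, below the 3.203 to 3.258 of the other βIgf1rKD mice. Fads1 was at 5.35 log2 CPM in M152, below the 5.55 to 5.58 of the other βIgf1r mice.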

How the results depend on the processing

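No paired analysis was possible because no mouse number occurs in both groups. At an unadjusted p under 0.05 edgeR called 637 genes of all tested, against 815 with DESeq2. With no filter on low counts it called 1098, and with at least 10 counts in every mouse 557. It called 1143 with Xist as covariate, 395 with the acinar score and 533 with both. Without the 2 acinar-rich libraries it called 472, and 383 to 1114 when single mice were left out. The filters also change how many genes are tested, and the share of genes called was computed only for the main fit. Adjusted calls were 0 in edgeR and in each fit without 1 mouse, 6 with DESeq2 and 1 with limma-voom. Of the 36 genes, 1 was called, against 4 with DESeq2, 4 with no filter, 2 with at least 10 counts in every mouse, 0 with Xist and the acinar score together, 0 without the 2 acinar-rich libraries and 0 to 8 without single mice. Their median log2 fold change of -0.09 ran from -0.13 to -0.06 without single mice, with 23 to 30 of the 36 lower, and was -0.031 without the 2 acinar-rich libraries, with 22 lower.

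Of 360 values (36 genes, 10 alternatives), 326 kept their direction and side of the threshold, 8 came under it, 3 left it and 23 changed direction. With the acinar score Mvd was at 0.038, Acacb at -0.46 and Pmvk at -0.0092. Pmvk was at -0.0019 with RLE factors, -0.00051 with no filter and -0.00080 with at least 10 counts. With Xist, Srebf1 was at 0.011, Acss2 at -0.090 and Igf1r at 0.023. With Xist and the acinar score together, Fdft1 was at 0.0092, Dhcr7 at 0.028, Mvd at 0.028, Mvk at 0.058, Srebf1 at 0.14 and Acacb at -0.49. Without M145 and M149, Fdps was at 0.020, Lss at 0.11, Mvd at 0.21, Mvk at 0.046, Acaca at 0.080, Fasn at 0.12, Acly at 0.031, Acacb at -0.24 and Scd1 at -0.11. Leaving out single mice turned the direction of 12 genes, whose log2 fold changes ran from -0.13 to 0.014 (Lss), -0.18 to 0.050 (Sc5d), -0.20 to 0.044 (Mvd), -0.11 to 0.033 (Mvk), -0.092 to 0.11 (Pmvk), -0.017 to 0.087 (Tm7sf2), -0.16 to 0.0052 (Srebf1), -0.048 to 0.70 (Acacb), -0.15 to 0.046 (Fasn), -0.21 to 0.025 (Elovl6), -0.11 to 0.12 (Acss2) and -0.12 to 0.010 (Lpin1). The cause of these changes was not tested. The 46 to 197 counts of Acacb limit its precision, and 4 mice per group leave intervals near ±0.3 log2 for the abundant genes.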
